A study of Mus musculus with 4 samples.

Results

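The nuclear-encoded oxidative phosphorylation genes were 79 of the 15298 genes listed for mouse peritoneal macrophages, and they were taken by their symbols alone: names beginning with Nduf plus a, b, c, s or v and a number, Sdha to Sdhd, Uqcr, Cox4 to Cox8, or Atp5, without pseudogenes and without the Ndufaf assembly factors. Of these, 37 belonged by name to complex I, 4 to complex II, 8 to complex III, 13 to complex IV and 17 to complex V. The RNA came from peritoneal macrophages (CD11b+, F4/80+, Ly6G-) of 6-week-old female BALB/c mice. Microcurrent stimulation (MCS), a weak pulsed current applied through the skin, was given to the abdomen for 15 min under isoflurane, early in the light period at Zeitgeber time (ZT) 2. The current was left off for the control mice, which were otherwise handled alike. Cells were collected right after the procedure (ZT2) or 12 h later (ZT14, in the dark period), which gave 4 groups: control at ZT2, control at ZT14, MCS at ZT2 and MCS at ZT14. Each group was 1 library, made from a number of mice that neither labels nor methods state, so the groups had no replicate check.

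Oxidative phosphorylation passes electrons from NADH through complex I and from succinate through complex II to ubiquinone, then through complex III and cytochrome c to complex IV, which reduces oxygen. The protons pumped on the way drive the ATP synthase, complex V. Most subunits are encoded in the nucleus and imported, while a few core subunits of complexes I, III, IV and V are encoded in mitochondrial DNA, and none of those was among the listed genes. In macrophages the balance between this pathway and glycolysis is known to shift with activation state. Not every symbol that the rule took is a subunit of the complex it is named for: NDUFA4 is now placed in complex IV, COX7A2L is an assembly factor of supercomplexes, and Atp5s and Atp5sl (the latter now called Dmac2) are not counted as structural subunits of the ATP synthase.

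Levels are given as CPM (read counts scaled to a common library size), which were found to be whole reads multiplied by a constant of each library. The libraries held 8365590 to 9953243 reads, so that 1 read was worth 0.102 to 0.116 CPM. The members together took 27097 to 39758 reads, which is 0.316% to 0.399% of the CPM of a library. Ratios are log2(CPM + 0.1), and each is given with the 95% interval that the exact binomial distribution of the recovered reads allows. This interval covers counting error only, not the spread between mice, and an interval that leaves out 0 states that 2 libraries differed, not that 2 conditions did. Of the 79 members, 70 had a mean of 10 CPM or more over the 4 libraries, and 76 passed the filter on low values in each comparison. Cox6b2, Cox7a1 and Ndufa4l2 did not pass it.

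The sorted cells carried the genes of resident macrophages, with Adgre1 (F4/80) at 1327 CPM in control ZT2, 1361 in control ZT14, 1086 in MCS ZT2 and 1900 in MCS ZT14, and the 10 macrophage markers summed to 25417 to 28011 CPM. At ZT14, 8 of the 10 had an interval above 0 for MCS to control and 1 below. Genes of other cells were present too. The 6 B cell markers summed to 1224, 1479, 1147 and 1040 CPM in the same order of libraries, and all 6 were lower in MCS ZT14 than in control ZT14. The 6 mast cell markers summed to 1821, 1184, 2244 and 954 CPM, and the 9 of 10 neutrophil markers that were listed to 33.6, 32.3, 121.6 and 18.7 CPM. Red blood cell genes, of which 6 of 10 were listed, summed to 3.23, 1.32, 36.7 and 111.6 CPM, and of the 5 eosinophil markers Epx and Prg2 were not among the listed genes while the other 3 summed to 57.6, 50.9, 67.1 and 81.9 CPM. The 5 dendritic cell markers lay between 31.6 and 41.8 CPM, the 7 T and NK cell markers between 33.5 and 57.8, the 7 mesothelial and fibroblast markers between 6.15 and 22.7, and the 3 listed of 9 muscle and adipocyte markers between 1.64 and 2.54. These levels also differed between the libraries, not in 1 common order, and their part in the results was not tested. The mast cell and neutrophil sums were highest in MCS ZT2 and lowest in MCS ZT14. In bulk RNA, fewer cells of a type and less RNA per cell cannot be told apart.

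Most members were highest in the library collected 12 h after MCS. Of the 70 members at 10 CPM or more, 57 (81.4%) had their highest value in MCS ZT14, against 33.3% of the 8561 other genes at that level, and 33 (47.1%) had their lowest value in MCS ZT2, against 28.3%. Among 85 cytosolic ribosomal protein genes at that level, 62 (72.9%) were highest in MCS ZT14 and 60 (70.6%) lowest in MCS ZT2. This set was taken by symbols alone: names beginning with Rpl, Rps or Rplp and a number, without pseudogenes. Such a rule also takes genes named after a ribosomal protein, such as those of its kinases, so the set can be mixed. In sum the members reached 3406 CPM in control ZT2, 3200 in control ZT14, 3143 in MCS ZT2 and 4065 in MCS ZT14. The sum was highest in MCS ZT14 and lowest in MCS ZT2.

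**Figure D1:**
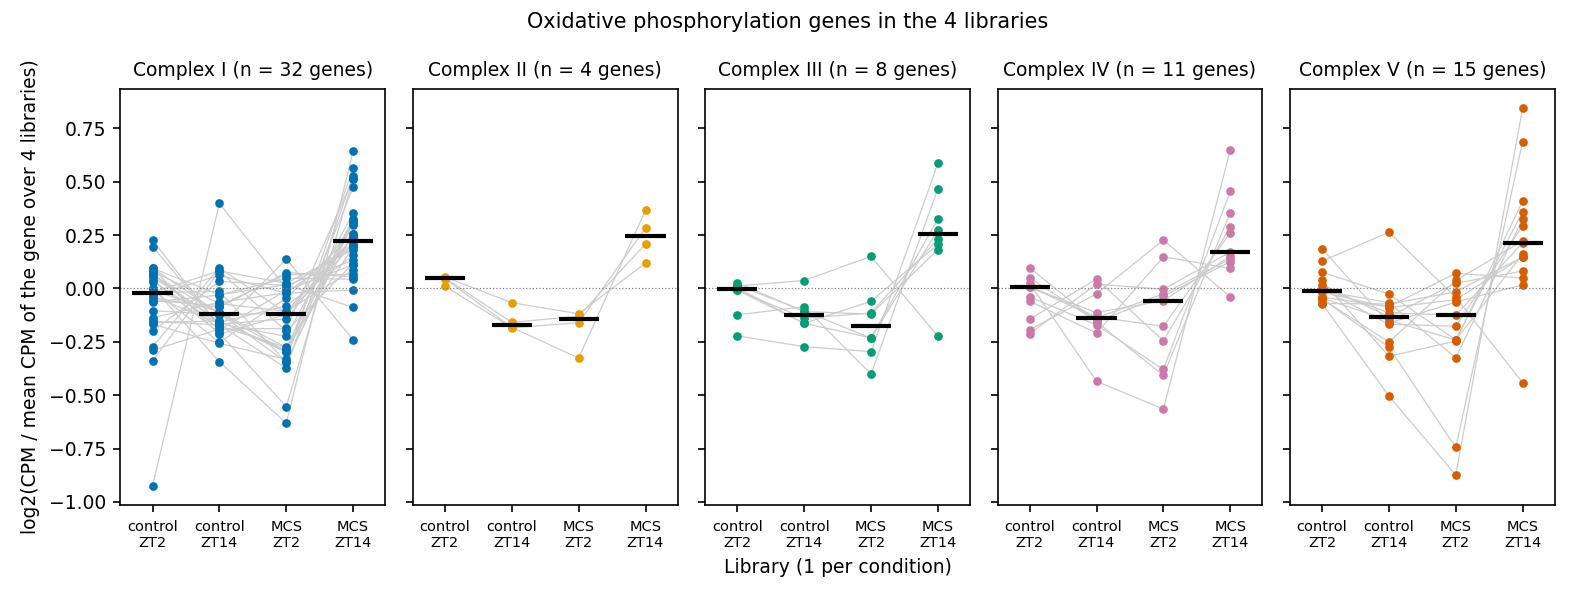
Level of each member with a mean of 10 CPM or more in the 4 libraries (x axis), as log2 of its CPM over its own mean of the 4 libraries (y axis), 1 panel for each complex. Points are genes, grey lines join a gene, and black bars are medians; the bar of MCS ZT14 is the highest in every panel.

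Per kilobase of transcript, the scale on which genes can be compared, the levels differed more between members than between libraries. Using the RefSeq-paired transcripts and the mean of the 4 libraries, the median was 25.02 CPM per kb for complex I, 33.0 for complex II, 46.6 for complex III, 92.7 for complex IV and 60.2 for complex V, over members with a mean of at least 1 CPM. With complexes taken by symbol, the highest in each were Ndufa4 (67.0 CPM per kb), Sdha (45.0), Uqcrh (66.9), Cox4i1 (159) and Atp5b (174). NDUFA4 is now placed in complex IV. Complex V by symbol had the widest range, from 1.56 CPM per kb for Atp5s to 174 for Atp5b, the catalytic beta subunit of the ATP synthase. Atp5s, which set its low end, is not counted as a structural subunit. Several stoichiometric partners differed in level, among them Sdhc at 12.5 and Sdha at 45.0 CPM per kb.

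**Figure D2:**
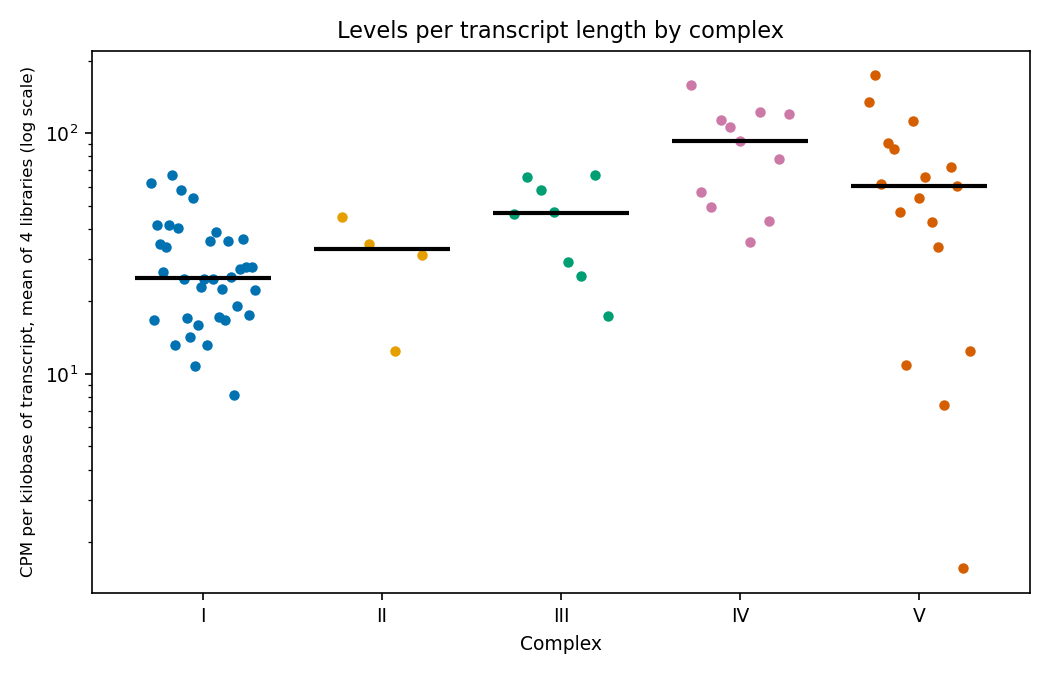
Mean CPM of the 4 libraries per kilobase of transcript (y axis, log scale) for the members of each complex (x axis) with a mean of at least 1 CPM. Points are genes and bars are medians, from 25.02 for complex I to 92.7 for complex IV.

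Promoter letters are shown for the 3 members whose log2 ratio of MCS to control passed 1 at ZT14 (Atp5e, Ndufb2, Cox7a2), for Ndufb6, Atp5g3 and Ndufs3, which passed it between times after MCS, and for Atp5l and Uqcrc1, which were chosen after their values were seen because they held the most matches or a doubled match. RefSeq (GRCm38.p6) gave windows of 300 bases, 250 before and 50 after a gene's start, for 64 members, 69 windows in all. The cores of 4 motifs were searched on both strands: NRF1 GCATGCGC, ETS CCGGAAG, YY1 AAGATGGCG and the E-box CACGTG. Matches are in capitals, and both orientations of the NRF1 core can overlap. The windows lie at chr2:174464052-174464351 (Atp5e, minus strand), chr6:39592315-39592614 (Ndufb2, plus), chr9:79759804-79760103 (Cox7a2, minus), chr4:40279372-40279671 (Ndufb6, minus), chr2:73911277-73911576 (Atp5g3, minus), chr2:90904672-90904971 (Ndufs3, minus), chr9:44920693-44920992 (Atp5l, minus) and chr9:108936398-108936697 (Uqcrc1, plus), and each is printed 5′ to 3′ in the direction of the gene.
Atp5e: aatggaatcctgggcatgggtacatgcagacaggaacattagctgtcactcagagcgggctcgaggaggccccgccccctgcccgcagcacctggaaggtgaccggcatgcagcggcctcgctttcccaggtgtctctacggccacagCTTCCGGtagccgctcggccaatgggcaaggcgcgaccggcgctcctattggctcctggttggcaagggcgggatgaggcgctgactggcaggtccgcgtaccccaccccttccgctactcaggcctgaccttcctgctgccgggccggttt
Ndufb2: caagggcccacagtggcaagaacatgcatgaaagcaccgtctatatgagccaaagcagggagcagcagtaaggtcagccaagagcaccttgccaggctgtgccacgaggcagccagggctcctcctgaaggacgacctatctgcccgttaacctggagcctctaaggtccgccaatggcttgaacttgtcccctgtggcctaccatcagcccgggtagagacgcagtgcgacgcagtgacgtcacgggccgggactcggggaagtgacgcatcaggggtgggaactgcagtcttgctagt
Cox7a2: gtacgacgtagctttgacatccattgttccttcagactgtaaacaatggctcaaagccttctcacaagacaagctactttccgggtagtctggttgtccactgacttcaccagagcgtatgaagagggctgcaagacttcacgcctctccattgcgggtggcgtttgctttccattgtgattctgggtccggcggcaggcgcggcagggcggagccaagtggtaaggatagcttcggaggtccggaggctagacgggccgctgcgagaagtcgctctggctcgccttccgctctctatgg
Ndufb6: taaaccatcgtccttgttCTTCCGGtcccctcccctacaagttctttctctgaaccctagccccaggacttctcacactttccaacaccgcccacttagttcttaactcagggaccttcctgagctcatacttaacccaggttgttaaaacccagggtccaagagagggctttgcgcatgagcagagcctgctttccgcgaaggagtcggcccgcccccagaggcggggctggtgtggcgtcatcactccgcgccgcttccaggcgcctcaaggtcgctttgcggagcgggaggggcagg
Atp5g3: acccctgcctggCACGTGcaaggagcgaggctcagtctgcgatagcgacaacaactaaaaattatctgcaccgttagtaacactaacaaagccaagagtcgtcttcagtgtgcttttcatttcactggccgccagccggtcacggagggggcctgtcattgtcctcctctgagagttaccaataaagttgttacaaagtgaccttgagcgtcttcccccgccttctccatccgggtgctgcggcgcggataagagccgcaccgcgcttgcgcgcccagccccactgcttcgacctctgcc
Ndufs3: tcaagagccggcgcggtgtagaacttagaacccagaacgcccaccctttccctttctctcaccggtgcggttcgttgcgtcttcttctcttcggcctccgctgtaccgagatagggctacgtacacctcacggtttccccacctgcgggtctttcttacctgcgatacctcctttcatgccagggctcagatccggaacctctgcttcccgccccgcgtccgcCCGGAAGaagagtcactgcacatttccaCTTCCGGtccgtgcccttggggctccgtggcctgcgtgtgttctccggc
Atp5l: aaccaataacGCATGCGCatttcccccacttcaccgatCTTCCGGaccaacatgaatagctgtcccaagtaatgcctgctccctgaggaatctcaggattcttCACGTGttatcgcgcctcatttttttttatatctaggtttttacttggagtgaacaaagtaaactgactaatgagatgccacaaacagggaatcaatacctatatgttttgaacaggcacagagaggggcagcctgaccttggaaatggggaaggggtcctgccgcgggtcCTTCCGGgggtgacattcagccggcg
Uqcrc1: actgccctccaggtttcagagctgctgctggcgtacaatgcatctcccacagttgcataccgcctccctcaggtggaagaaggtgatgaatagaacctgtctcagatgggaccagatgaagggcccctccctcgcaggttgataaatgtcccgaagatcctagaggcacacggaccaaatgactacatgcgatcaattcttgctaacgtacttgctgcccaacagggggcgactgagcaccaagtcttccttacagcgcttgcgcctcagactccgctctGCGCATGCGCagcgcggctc

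The NRF1 core stood in 10 of the 69 windows (14.5%), against 5.41% of 8536 windows of other genes at 10 CPM or more and 2.71% of all 32851 windows. The ETS core stood in 16 (23.2%, against 19.0% and 8.86%), the YY1 core in 7 (10.1%, against 3.35% and 1.40%) and the E-box in 6 (8.70%, against 10.3% and 7.15%). Any of the 4 stood in 32 windows of members (46.4%), against 32.9% and 17.99%. By complex, any of the 4 stood in 15 of 34 windows of complex I, 2 of 3 of complex II, 3 of 5 of complex III, 3 of 11 of complex IV and 9 of 16 of complex V. The windows of Ndufb2 and Cox7a2 held none of the 4, so the members with the largest ratios did not share these letters within these windows.

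The first comparison asked how MCS and control differed 12 h after the stimulation, at ZT14. Of 76 members tested, 66 had a ratio above 0, and 52 had an interval above 0, against 18.7% of all 12368 genes tested. An interval below 0 was seen for 2 members, Uqcrb and Atp5sl, against 18.9% of all genes. The median log2 ratio of the members was 0.35, against 0.00 over all genes tested, and their summed reads gave 0.35 (0.32 to 0.37). A log2 ratio past 1 was seen for 3 members, Atp5e, Ndufb2 and Cox7a2, against 3.4% of all genes in either direction. B cell and mast cell genes were lower and red blood cell genes higher in the same MCS library, with the sums given above.

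In complex I, which oxidises NADH, 21 of 36 members tested had an interval above 0 and 0 had one below 0. For this and the other complexes at ZT14, the shares of all genes were 18.7% above and 18.9% below. The largest ratio was that of Ndufb2, an accessory subunit, at 3.81 CPM in control ZT2, 3.30 in control ZT14, 4.52 in MCS ZT2 and 7.98 in MCS ZT14. Its log2 ratio at ZT14 was 1.25 (0.65 to 1.93), and its low level left the interval wide. Ndufa2, the accessory subunit with the highest ratio among members at 10 CPM or more, read 19.3, 15.2, 12.4 and 30.1 CPM in the same order, a log2 ratio of 0.98 (0.69 to 1.29). Both were highest in MCS ZT14, and Ndufa2 was also lowest in MCS ZT2.

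The nuclear core subunits of complex I were uneven. Ndufs3 read 27.1, 22.8, 17.98 and 37.6 CPM (log2 ratio 0.72 at ZT14, 0.47 to 0.97), and Ndufv1, the subunit that binds NADH and FMN, 26.3, 26.0, 22.6 and 42.2 CPM (0.70, 0.46 to 0.93). Ndufs1, the largest of the iron-sulfur subunits, gave 0.26 (0.07 to 0.46). Ndufs7, Ndufs8 and Ndufv2 had intervals that held 0, with ratios of 0.14, 0.15 and -0.06. Core subunits of the same arm of complex I therefore differed in ratio: the interval of Ndufv1 lay above that of its partner Ndufv2 (-0.28 to 0.17).

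All 4 genes of complex II, succinate dehydrogenase, had intervals above 0 at ZT14. Sdha, the flavoprotein, read 136 CPM in control ZT2, 125 in control ZT14, 120 in MCS ZT2 and 142 in MCS ZT14, a log2 ratio of 0.19 (0.07 to 0.30). Sdhb, the iron-sulfur subunit, gave 0.37 (0.16 to 0.58), and the membrane anchors Sdhc and Sdhd gave 0.47 (0.26 to 0.68) and 0.55 (0.34 to 0.76). Sdhd read 39.6, 33.8, 30.6 and 49.5 CPM. The interval of Sdhd lay above that of Sdha, so the ratio was larger for this anchor than for the flavoprotein.

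In complex III, 7 of 8 genes had an interval above 0 and the other, Uqcrb, had one below 0. Uqcrfs1, the Rieske iron-sulfur protein, read 29.9, 28.9, 28.4 and 52.4 CPM, a log2 ratio of 0.86 (0.64 to 1.08), and stood apart in MCS ZT14 alone. The core proteins Uqcrc1 and Uqcrc2 gave 0.29 (0.14 to 0.44) and 0.38 (0.21 to 0.55), the hinge protein gene Uqcrh 0.55 (0.35 to 0.76) and the small subunit Uqcr10 0.49 (0.21 to 0.77). Uqcrb, which encodes a ubiquinone-binding subunit, read 31.3, 31.9, 34.5 and 26.6 CPM and was lowest in the library in which most members were highest (-0.26, -0.51 to -0.01).

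In complex IV, cytochrome c oxidase, 9 of 11 genes tested had an interval above 0. Cox4i1, the ubiquitous isoform of subunit 4, read 117, 107, 92.3 and 165 CPM, a log2 ratio of 0.62 (0.51 to 0.74). Cox7a2, a widely expressed isoform of subunit 7a, read 23.6, 17.1, 15.7 and 36.3 CPM and had the largest ratio of the complex, 1.08 (0.81 to 1.36). Cox5a and Cox5b gave 0.51 (0.30 to 0.73) and 0.39 (0.20 to 0.60). Cox7c at 36.8, 41.4, 49.3 and 41.0 CPM (-0.01, -0.22 to 0.19) and Cox8a at 57.1, 67.0, 65.9 and 74.3 CPM (0.15, -0.01 to 0.31) had intervals that held 0, and Cox7c was highest in MCS ZT2.

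In complex V, the ATP synthase, 11 of 17 genes had an interval above 0 and Atp5sl had one below 0. Atp5a1 and Atp5b, the alpha and beta subunits and the members with the most reads, read 333, 308, 306 and 387 CPM and 329, 313, 321 and 369 CPM. Their log2 ratios at ZT14 were 0.33 (0.26 to 0.40) and 0.24 (0.17 to 0.31). Atp5e, the epsilon subunit of the central stalk, had the largest ratio of all members. It read 34.4 CPM in control ZT2, 25.5 in control ZT14, 19.7 in MCS ZT2 and 64.9 in MCS ZT14, a log2 ratio of 1.35 (1.13 to 1.57). Its partners in the stalk were far from it: Atp5c1 (gamma) gave 0.22 (0.08 to 0.36) and Atp5d (delta) 0.13 (-0.01 to 0.28).

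The 3 genes for the identical c subunit of the ATP synthase also differed. Atp5g3 read 37.4, 32.0, 23.1 and 62.3 CPM, with a log2 ratio of 0.96 (0.76 to 1.17) at ZT14. Atp5g1 read 29.8, 23.3, 24.5 and 38.5 CPM (0.72, 0.48 to 0.98), and Atp5g2, with the most reads of the 3, read 79.1, 68.8, 84.0 and 95.5 CPM (0.47, 0.33 to 0.62). In each library Atp5g2 was the highest of the 3, in CPM and per kilobase. Atp5sl, which is not a subunit, read 26.1, 28.7, 23.2 and 17.6 CPM, and its ratio of -0.70 (-0.99 to -0.42) was the lowest of all members.

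Of the 19 tissue isoforms on the list, 14 were among the listed genes. Of the forms known for muscle, testis or hypoxia, those listed lay near the level of 3 reads, which is 0.307 to 0.348 CPM, and under 1 CPM in each library: Cox6b2 was at 0.115, 0.549, 0 and 0.614 CPM, Cox7a1 at 0.924, 0.549, 0.116 and 0.409 CPM and Ndufa4l2 at 0.102 to 0.220 CPM. The widely expressed forms Cox6a1 (0.30, 0.14 to 0.47), Cox6b1 (0.26, 0.10 to 0.43), Cox7b (0.28, 0.08 to 0.48), Cox7a2l (0.24, 0.14 to 0.35) and Ndufa4 (0.37, 0.17 to 0.58) all had intervals above 0 at ZT14.

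Between complexes, the ratios at ZT14 did not separate beyond counting error. The summed reads gave log2 ratios of 0.34 (0.30 to 0.38) for complex I, 0.32 (0.24 to 0.40) for complex II, 0.39 (0.31 to 0.46) for complex III, 0.35 (0.30 to 0.40) for complex IV and 0.34 (0.30 to 0.38) for complex V. The intervals of all 5 overlapped. The medians ran from 0.24 in complex V to 0.42 in complex II, but over members at 10 CPM or more that of complex V was 0.33 and complex IV was the lowest at 0.28. The ratios ranged more widely within a complex than the medians did between complexes, from -0.42 to 1.25 in complex I and from -0.70 to 1.35 in complex V. The low end of complex V was Atp5sl, which is not a subunit.

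**Figure D3:**
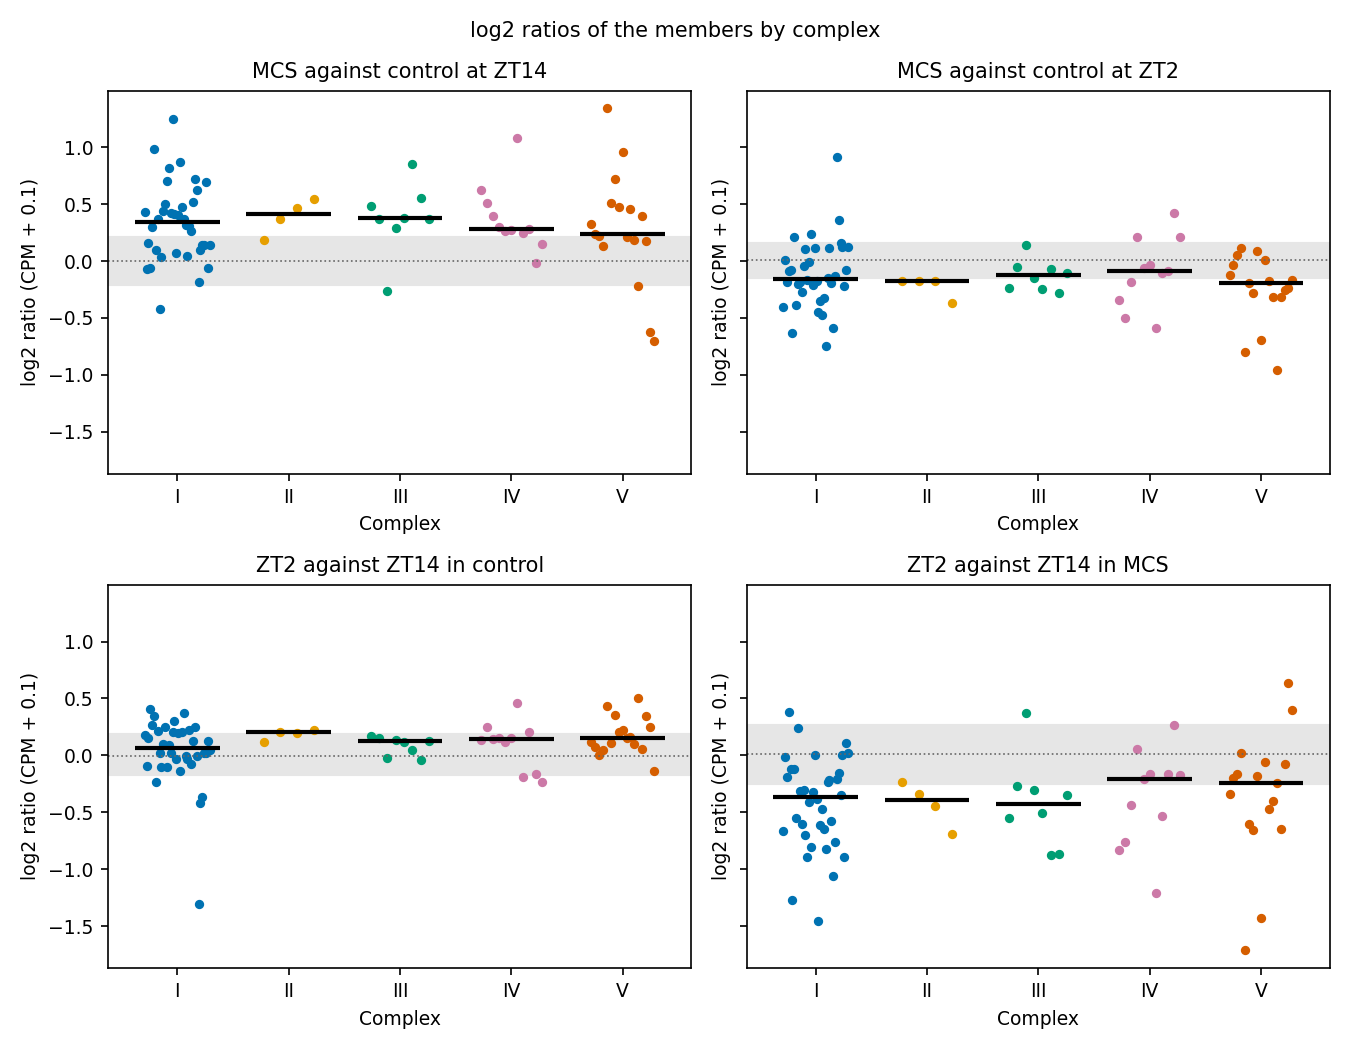
log2 ratio of each tested member (y axis, CPM + 0.1) by complex (x axis) in the 4 comparisons. Bars are medians of a complex, the grey band is the middle 50% of the other genes tested and the dotted line their median; the complex medians lie above the dotted line at ZT14 and below it at ZT2 for MCS against control.

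Right after the stimulation, at ZT2, the same comparison pointed the other way and was smaller. Of 76 members, 57 had a ratio below 0. An interval below 0 was seen for 24, against 11.0% of the 12612 genes tested, and an interval above 0 for 4, against 11.5%. The median log2 ratio was -0.17, against 0.00 over all genes, and the summed reads gave -0.12 (-0.14 to -0.09). The number past 1 was 0, against 2.21% of all genes. Neutrophil genes, at 121.6 against 33.6 CPM, and red blood cell genes, at 36.7 against 3.23 CPM, were higher in the same MCS library. Mast cell genes were higher there too, at 2244 against 1821 CPM, and B cell genes were lower, at 1147 against 1224 CPM.

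Among members at 10 CPM or more, several of the lowest at ZT2 had been among the highest at ZT14. Atp5e gave -0.80 (-1.08 to -0.53), Atp5g3 -0.69 (-0.96 to -0.44), Ndufa2 -0.63 (-0.9997 to -0.28), Ndufs3 -0.59 (-0.90 to -0.30) and Cox7a2 -0.59 (-0.91 to -0.27). Cox5a at -0.50 (-0.75 to -0.26) and Cox4i1 at -0.34 (-0.48 to -0.20) were lower too. The ATP synthase subunits Atp5b (-0.04, -0.11 to 0.04), Atp5c1 (0.05, -0.09 to 0.20) and Atp5d (0.11, -0.04 to 0.26) had intervals that held 0. Below 10 CPM, Atp5k gave -0.96 (-1.93 to -0.11) and Ndufc1 -0.74 (-1.46 to -0.08), the former the lowest of all members at ZT2, and at ZT14 their ratios were -0.22 and 0.05. In complex II, Sdha (-0.17, -0.29 to -0.05) and Sdhd (-0.37, -0.61 to -0.14) had intervals below 0, and the intervals of Sdhb and Sdhc held it.

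The 4 members with an interval above 0 at ZT2 were Ndufs5, Cox7c, Cox6a1 and Cox8a. Ndufs5, an accessory subunit of complex I, read 5.31, 13.3, 10.1 and 11.7 CPM (0.91, 0.39 to 1.47), so that the low value was that of control ZT2. A copy of this gene, BC002163, matches its transcript at 99.4% identity over 60.8% of its length, and it read 8.55, 0.439, 3.48 and 4.60 CPM. With both added, the values were 13.9, 13.7, 13.6 and 16.3 CPM and the ratio at ZT2 was -0.03 (-0.41 to 0.35). The ratio of Ndufs5 thus depended on whether the reads of its copy were added. The copy of Cox7c, Gm10012, read 0.511 to 0.812 CPM, and Cox7c kept a ratio of 0.42 (0.21 to 0.63) with it added.

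By complex, the summed reads at ZT2 gave -0.12 (-0.17 to -0.08) for complex I, -0.20 (-0.29 to -0.11) for complex II, -0.13 (-0.21 to -0.05) for complex III, -0.08 (-0.13 to -0.02) for complex IV and -0.11 (-0.15 to -0.07) for complex V. All 5 lay below 0 and overlapped. Of the 70 members at 10 CPM or more, 49 (70.0%) were above 0 at ZT14 and below 0 at ZT2, against 30.7% of the other genes at that level. The pattern was not particular to the members: 58 of 85 cytosolic ribosomal protein genes at that level (68.2%) had it too. The comparisons at the 2 times shared no library.

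**Figure D4:**
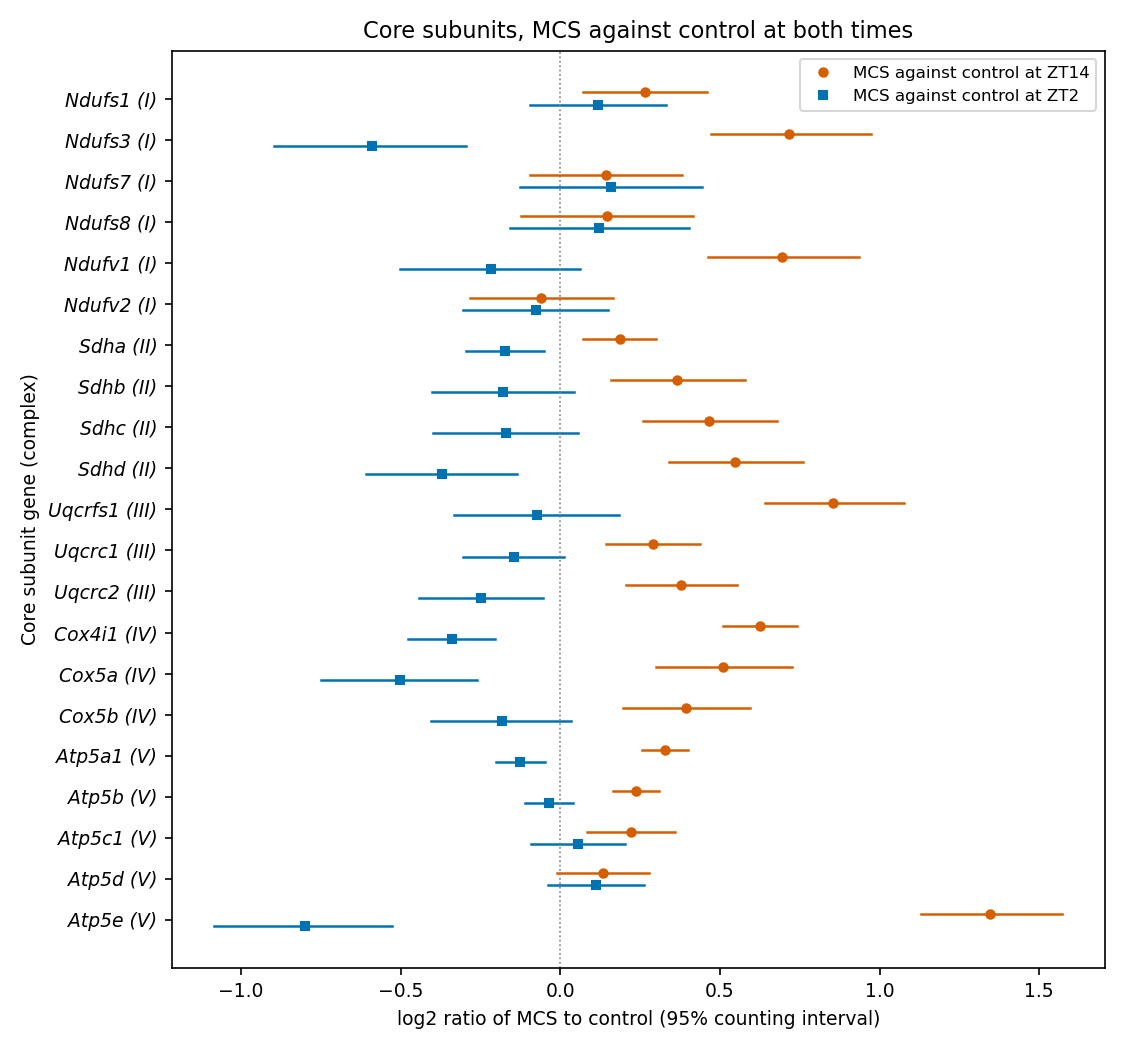
log2 ratio of MCS to control (x axis) for 21 core subunit genes (y axis, complex in brackets) at ZT14 (circles) and ZT2 (squares), with 95% counting intervals as lines. At ZT14, 17 of the 21 intervals lie above 0, against 18.7% of all genes tested. At ZT2, 8 lie below 0, against 11.0%, and 0 above it, against 11.5%.

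The comparisons between times asked how the members differed between ZT2 and ZT14 within each treatment, and each shares its libraries with the comparisons above. In the control libraries the members were a little higher at ZT2. Of 76 members, 57 had a ratio of ZT2 to ZT14 above 0. An interval above 0 was seen for 14 (18.4%), against 13.6% of the 12465 genes tested, and an interval below 0 for 5, against 15.9%. The median was 0.13 and the summed reads gave 0.09 (0.07 to 0.11). The one member past 1, against 3.61% of all genes, was Ndufs5 at -1.31 (-1.85 to -0.82), and with its copy added the ratio was 0.01 (-0.36 to 0.39). Among members at 10 CPM or more, Cox7a2 (0.46, 0.15 to 0.77), Atp5e (0.43, 0.18 to 0.69) and Ndufa12 (0.41, 0.15 to 0.66) were the highest, while Ndufs7 (-0.37, -0.64 to -0.10), Cox8a (-0.23, -0.41 to -0.06) and Cox7a2l (-0.19, -0.31 to -0.07) lay below 0.

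After MCS the members were lower at ZT2 than at ZT14. Of 76 members, 65 had a ratio below 0. An interval below 0 was seen for 51, against 22.2% of the 12534 genes tested, and an interval above 0 for 4, against 21.9%. The median was -0.34 and the summed reads gave -0.37 (-0.39 to -0.35). Past 1 were 6 members, all of them lower at ZT2, against 5.83% of all genes in either direction: Atp5e (-1.71, -1.97 to -1.47), Ndufb6 (-1.46, -1.99 to -0.98), Atp5g3 (-1.43, -1.67 to -1.20), Ndufa2 (-1.27, -1.61 to -0.95), Cox7a2 (-1.21, -1.51 to -0.92) and Ndufs3 (-1.06, -1.35 to -0.79). Ndufb6, an accessory subunit of complex I, read 7.16 CPM in control ZT2, 7.91 in control ZT14, 5.22 in MCS ZT2 and 14.5 in MCS ZT14. The control libraries differed little for it, and the distance lay between the MCS libraries. Uqcrb (0.37, 0.13 to 0.62), Ndufa12 (0.38, 0.12 to 0.63), Cox7c (0.27, 0.07 to 0.47) and Atp5sl (0.40, 0.10 to 0.70) went the other way.

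By complex, the summed reads of the MCS libraries gave -0.40 (-0.44 to -0.35) for complex I, -0.36 (-0.44 to -0.27) for complex II, -0.43 (-0.50 to -0.35) for complex III, -0.39 (-0.44 to -0.34) for complex IV and -0.33 (-0.37 to -0.30) for complex V. Those of the control libraries gave 0.07 (0.02 to 0.12), 0.16 (0.08 to 0.25), 0.09 (0.01 to 0.17), 0.04 (-0.01 to 0.09) and 0.12 (0.08 to 0.16) in the same order. Complex IV was the one complex whose interval held 0 between the control libraries.

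The transcripts of the members are short, and short transcripts moved as a class in these libraries. The median length of the members' RefSeq-paired transcripts was 775.5 bases, and 63.3% were under 1000 bases, against 7.64% of other genes. Complex IV had the shortest, with a median of 618 bases, and complex II the longest, with 2066. Spearman's rho between the longest transcript and the log2 ratio of MCS to control was -0.23 over 12190 other genes at ZT14 and 0.12 over 12438 at ZT2, a description across genes, which are not independent. Among the 76 members the same rho was 0.04 and -0.03. With the median transcript of each gene in place of the longest, rho was -0.16 and 0.06 over the other genes and 0.13 and 0.20 among the members, so the trend at ZT2 depended on the choice of length. At ZT14 the median of other genes fell from 0.17 in the shortest of 10 length bins, which held 46 of the members, to -0.13 in the longest. At ZT2 the shortest bin had a median of -0.06.

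Setting each member against the median of other genes in its own length bin left a smaller distance in the same direction. At ZT14 the median member lay 0.22 above its bin, with 57 of 76 members above, and at ZT2 it lay -0.12 from it, with 54 of 76 below. Between times the distance was 0.09 in control and -0.25 after MCS. The bins were not matched for level. By complex at ZT14 it was 0.21 for complex I, 0.29 for complex II, 0.27 for complex III, 0.13 for complex IV and 0.14 for complex V. Among genes at 10 CPM or more with transcripts under 1000 bases, 26 of 42 members (61.9%) had an interval above 0 at ZT14, against 46.9% of 392 other genes. The medians were 0.34 for these members and 0.21 for the other genes. At ZT2, 14 of the 42 (33.3%) had an interval below 0, against 27.6%, and the medians were -0.17 and -0.07. Between times after MCS, 26 of the 42 (61.9%) had an interval below 0, against 51.3%, with medians of -0.32 and -0.24. Between times in control the medians were 0.14 and 0.04. These 392 other genes thus moved in the same direction as the members, with medians of smaller size. At ZT2 the share of the members was near that of these other genes, so it is not read as a result about the members. Cytosolic ribosomal protein genes, which are also short, are read apart below. Whether the length trend came from the RNA, from the libraries or from the cells was not tested.

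**Figure D5:**
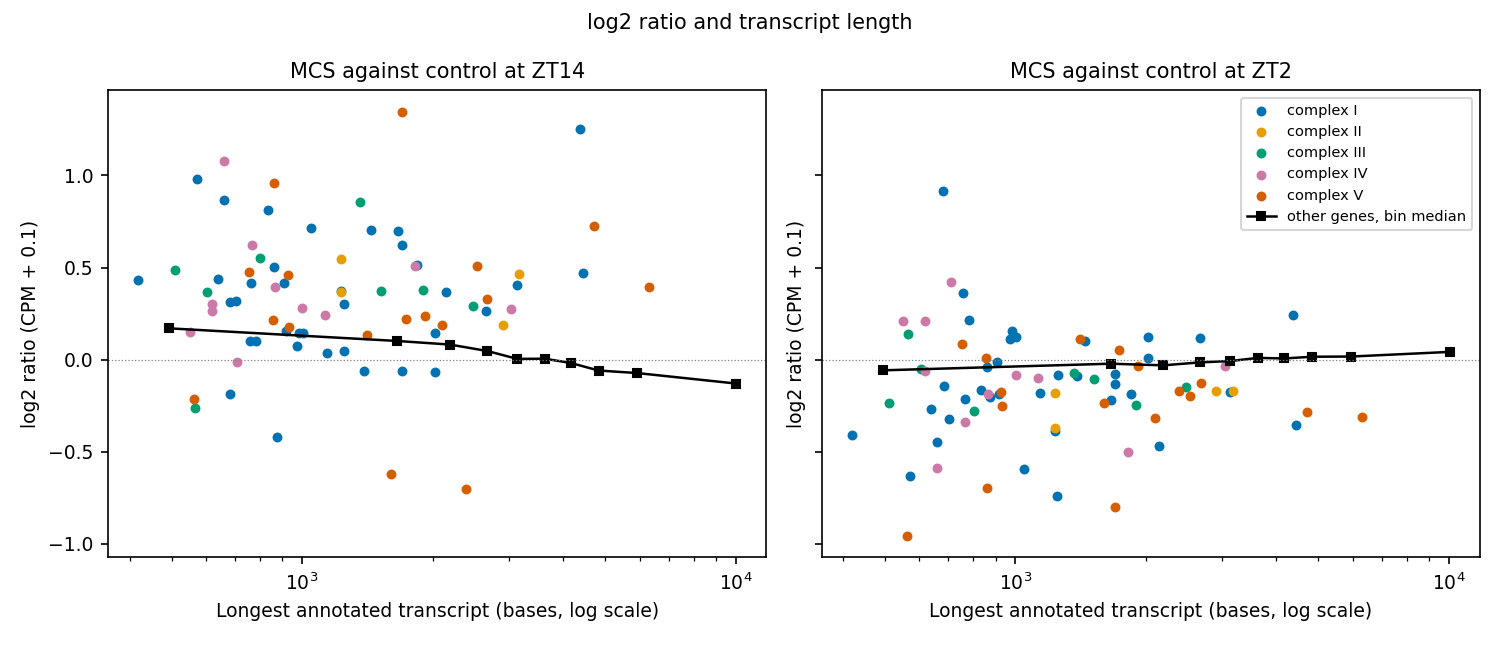
log2 ratio of MCS to control (y axis) against the longest annotated transcript (x axis, log scale) at ZT14 and ZT2. Coloured points are the tested members by complex, and black squares are the medians of other genes in 10 length bins, which fall from 0.17 to -0.13 at ZT14.

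Other nuclear genes of the mitochondrion and of the ribosome were read beside the members. Over all 12368 genes tested at ZT14, 18.7% had an interval above 0 and 18.9% had one below. Of 21 listed other genes of the respiratory chain, such as Ndufab1, Cycs and Atpif1, 17 were above 0 at ZT14, 6 with an interval above 0 and 1 below, and their median was 0.22. Their summed reads gave 0.31 (0.25 to 0.38), an interval that overlapped that of the members. Of 43 assembly factors tested, 10 (23.3%) had an interval above 0, near the share of all genes, and 3 (6.98%) had one below (median 0.11). The 17 enzymes of the citric acid cycle had 7 (41.2%) above and 1 (5.88%) below (median 0.14). The 77 mitochondrial ribosomal proteins had 19 (24.7%) above and 4 (5.19%) below (median 0.12). The 18 mitochondrial regulators tested had 2 (11.1%) above and 4 (22.2%) below (median 0.02). Among them Esrra, a nuclear receptor known to act on oxidative phosphorylation genes, read 24.3, 26.8, 24.2 and 37.2 CPM, a log2 ratio of 0.47 (0.24 to 0.71), and Ppargc1a, a coactivator of mitochondrial biogenesis, was at 0.102 to 0.232 CPM. Nrf1 and Tfam had intervals that held 0, and Gabpa gave -0.20 (-0.37 to -0.03).

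Cytosolic ribosomal protein genes, taken by symbol as above, also have short transcripts, with 65.6% under 1000 bases. The longest in this set was 7244 bases, and genes that are not ribosomal proteins were not taken out. At ZT14, 56 of 91 tested had an interval above 0 and 16 below, with a median of 0.23 and summed reads at 0.23 (0.22 to 0.23). At ZT2, 56 of 92 (60.9%) had an interval below 0, against 31.6% of the members. An interval above 0 was seen for 9, and the median of the ribosomal protein genes was -0.14. At ZT14 the summed reads of the members had a higher ratio than those of the ribosomal proteins, and the intervals did not overlap. At ZT2 the intervals overlapped. Between times after MCS, 65 of 91 ribosomal protein genes (71.4%) had an interval below 0, against 67.1% of the members, and 13 had one above. Their summed reads gave -0.37 (-0.37 to -0.36), which overlapped the interval of the members. Between times in control their summed reads gave -0.01 (-0.02 to -0.005), below the interval of the members.

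A count test over all 4 libraries was added after the values had been seen. edgeR's quasi-likelihood test with additive terms for time and MCS had 1 residual degree of freedom and assumed 1 MCS effect for both times, so that an effect that turned between times counted as spread. With Benjamini-Hochberg adjustment at 0.05, it called 23 of 12404 genes for MCS and 271 for time, and 0 of the 76 members for either term. At an unadjusted p under 0.05 it took 2 members for MCS and 7 for time, beside 299 (2.41%) and 1269 (10.2%) of all 12404 genes, so the members' counts were near the background. The lowest adjusted p of a member was 0.9999 for MCS and 0.19 for time.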

How the data were processed

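RNA from sorted peritoneal macrophages was depleted of ribosomal RNA, made into directional libraries and read as 150-base pairs. Per the labels and methods, the authors trimmed reads with Trimmomatic 0.38, estimated expression with RSEM 1.3.0 and Bowtie2 on mm10, and deposited CPM values made with edgeR. The annotation version and any filter were not given in the sources used here. All values (100.0%) were whole reads within 0.01, and TMM factors recomputed with edgeR 4.0.16 (R 4.3.3) gave the deposited scale. RSEM counts were whole here. Genes with a log2 mean CPM above 0 in a comparison were tested. A pseudocount of 0.1 CPM was used, intervals were exact binomial at 95%, and the scripts were tested on simulated data. Lengths came from GENCODE M21 (98.9% of genes matched), and copies were searched with blastn 2.17.0. Members and gene lists were chosen with earlier results of these data known. Named genes were those past a log2 ratio of 1, the highest and lowest of each complex at 10 CPM or more, the highest per kilobase, core subunits and tissue isoforms, of which 1 item is not reported here. No per-sample column was left out.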

Additional observations from a re-analysis of the deposited data

Results flagged for a closer look

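The effect of MCS on the members turned between times, and this was marked because the only library pair of one time moved one way and the only pair of the other the opposite way. The log2 ratio of the members' summed reads of MCS to control was 0.35 at ZT14 and -0.12 at ZT2, a difference of 0.46 with a counting interval of 0.43 to 0.49. With 1 library per group, the difference was not tested against the spread between mice.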

How the results depend on the processing

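All 48 alternative medians of the members and all 20 of the complexes kept their sign. Of 152 alternative values of the members' medians, counts and sums, 117 stayed close to the reported one. Some of these could not differ, so the counts are not a measure of robustness. TMM factors are the deposited scale, and in complexes II, III and IV the filter of 10 CPM kept the same genes as the main filter. Set against length bins by the longest, median or RefSeq-paired transcript, the median was 0.22, 0.28 or 0.20 at ZT14 and -0.25, -0.29 or -0.23 between times after MCS. By the longest or RefSeq-paired transcript it was -0.12 or -0.13 at ZT2 and 0.091 or 0.090 between times in control. Without a filter the median at ZT14 was 0.32. With a 99% interval, 1 member lay below 0 at ZT14, 2 lay above and 15 below at ZT2, and 7 lay above between times in control. A threshold of 0.5 in place of 1 took 22 members at ZT14, 9 at ZT2, 2 in control and 30 after MCS. The share of all genes past 0.5 was not computed, so these counts cannot be read as a result about the members. With the ratio of all genes centred, the control time median was 0.15 and the sum 0.11. With plain read totals, chosen after seeing the data, the median was -0.13 and the sum -0.073 at ZT2, and -0.27 and -0.30 between times after MCS. Without Atp5s and Atp5sl, also chosen afterwards, 1 member lay below 0 at ZT14. With copies added, 0 members passed 1 between times in control. Under edgeR's additive test 0 members were called in any direction. Adding copies at the planned coverage gave no value, since no such copy was listed. Leaving out a library was not possible with 1 per group. Depth limits Ndufb2, Atp5k and other members under 10 CPM, whose counting intervals are wide.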
